A study of Mus musculus with 12 samples.

Results

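Astrocytes cultured from the midbrain were compared with astrocytes cultured from the cortex, both as mock cultures in growth medium. The libraries were chosen by their titles, which name midbrain or cortical astrocytes with no hairpin: 2 midbrain and 2 cortex libraries, 4 of the 12 in the series. All cultures came from C57BL/6 mice, and the labels give no other genotype and no age. The other 8 libraries are of the same 2 regions after 2 or 4 weeks of an shRNA against PTB in neuronal differentiation medium, 2 libraries in each group. They entered the fit for the estimate of the spread, and served to show how far a region difference recurs in other libraries.

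Astrocytes take up glutamate and potassium, supply neurons with metabolites and secrete much of the brain's extracellular matrix. Along the neural tube, regional identity is set in the embryo by transcription factors whose domains meet at fixed borders: Otx2, Gbx2, the Engrailed and the Iroquois factors act around midbrain and hindbrain, and Lhx2, Emx2, Pax6 and Dmrta2 in the forebrain. WNT ligands made at the midline and at the midbrain-hindbrain border are among the signals that place those domains, and astrocytes can keep part of the code of the region they arose in.

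The mock libraries held 11272975 and 11385761 reads in midbrain and 10197614 and 10318422 reads in cortex, of which mitochondrially encoded RNA took 16.9 and 18.3% in midbrain and 18.9 and 22.7% in cortex. Where a mock library had no read of a gene, up to 3 reads (0.163 to 0.239 CPM) remain possible. That floor covers counting error only, since no molecular identifiers are described. Levels are in CPM, reads scaled to the TMM-adjusted size of their library, and are given for midbrain library 1 and 2 and then for cortex library 1 and 2. Fold changes are log2, midbrain over cortex, ± standard error, from edgeR's quasi-likelihood test, also where parentheses give only a signed value, and adjusted p-values are Benjamini-Hochberg values over 14607 genes. Whether replicates came from separate cultures or animals is not stated in the labels. The p-values therefore speak only of the spread among these libraries, which may be technical. In cultures sequenced in bulk, fewer cells of a type and less RNA per cell cannot be told apart.

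Of 14607 genes tested, 320 (2.19%) passed an adjusted p of 0.05, 183 (1.25%) higher and 137 (0.938%) lower in midbrain. A difference of at least 2-fold was seen in 162 of the higher and 113 of the lower genes. In all 320, both midbrain libraries lay on the same side of both cortex libraries, which held for 13.6% (higher) and 12.7% (lower) of all genes tested. At an unadjusted p under 0.05 there were 1402 genes. With replicate number as a block in mock, 2064 genes (14.1%) were called, 1103 (7.55%) higher and 961 (6.58%) lower, and all 320 were among them in the same direction. Fitted to the 4 mock libraries alone with no block, no gene passed, with 648 at an unadjusted p under 0.05. The region was thus called on the spread of all 12 libraries or on the paired differences. Replicates differed over 2-fold for 15.8 and 18.4% of genes in midbrain and cortex mock, against 6.44 to 10.5% in the shPTB groups. A spread shared with the shPTB libraries can therefore be too small for the mock contrast, and its adjusted p-values too low.

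**Figure D1:**
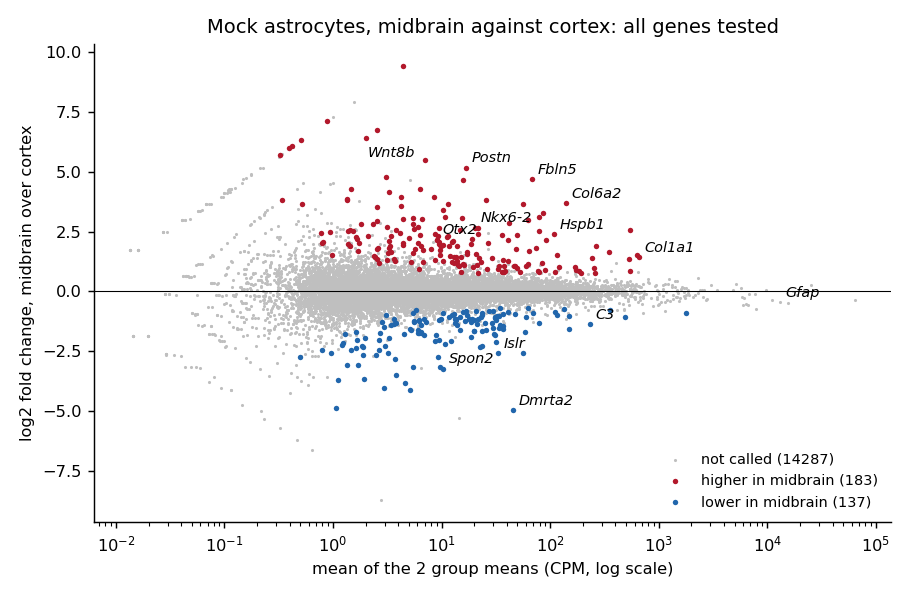
Log2 fold change of midbrain over cortex mock astrocytes (vertical axis) against the mean level in CPM (horizontal axis, log scale) for the 14607 genes tested; each point is a gene. Red points are the 183 genes called higher and blue points the 137 called lower in midbrain; genes with 0 reads in 1 group are drawn at their fitted value, which is no bound.

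Among regional transcription factors, all 5 called genes of the midbrain and hindbrain list were higher in midbrain and both called genes of the forebrain list were lower. The sequences just upstream of 6 called patterning, ZIC and WNT genes are shown as examples of the groups described next: 3 patterning factors, a ZIC factor, a WNT ligand and a WNT antagonist. They were chosen after their values were seen and are not the 6 genes with the largest differences. RefSeq promoters (GRCm38.p6) were in hand for 13 of the 17 called patterning, ZIC and WNT genes. Each line gives the 250 bases before the start, 5′ to 3′ on the gene's strand. Capitals mark TAATCC or its reverse complement GGATTA, the word bound by OTX-type homeodomains, and CTTTGA or its reverse complement TCAAAG, the core bound by TCF/LEF factors.
Otx2 (chr14:48665110-48665359, minus strand): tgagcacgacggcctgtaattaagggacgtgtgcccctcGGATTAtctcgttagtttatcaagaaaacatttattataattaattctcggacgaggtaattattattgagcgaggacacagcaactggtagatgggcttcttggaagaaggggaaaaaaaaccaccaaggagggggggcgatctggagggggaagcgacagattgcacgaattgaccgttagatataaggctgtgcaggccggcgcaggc
Nkx6-2 (chr7:139582798-139583047, minus strand): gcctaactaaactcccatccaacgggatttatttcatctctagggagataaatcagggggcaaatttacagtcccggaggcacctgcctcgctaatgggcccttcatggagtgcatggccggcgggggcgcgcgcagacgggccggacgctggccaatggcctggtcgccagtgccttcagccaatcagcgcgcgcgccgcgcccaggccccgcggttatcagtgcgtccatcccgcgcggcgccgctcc
Zic1 (chr9:91365769-91366018, minus strand): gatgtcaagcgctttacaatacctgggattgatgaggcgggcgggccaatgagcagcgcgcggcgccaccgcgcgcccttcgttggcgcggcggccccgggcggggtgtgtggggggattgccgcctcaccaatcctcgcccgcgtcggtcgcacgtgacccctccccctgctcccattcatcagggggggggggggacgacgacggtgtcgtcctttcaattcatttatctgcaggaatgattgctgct
Dmrta2 (chr4:109977775-109978024, plus strand): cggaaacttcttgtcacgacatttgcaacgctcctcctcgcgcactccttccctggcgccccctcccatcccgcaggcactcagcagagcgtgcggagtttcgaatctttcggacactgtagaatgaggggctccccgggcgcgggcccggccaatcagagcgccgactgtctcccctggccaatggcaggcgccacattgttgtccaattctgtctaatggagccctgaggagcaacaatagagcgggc
Wnt8b (chr19:44493222-44493471, plus strand): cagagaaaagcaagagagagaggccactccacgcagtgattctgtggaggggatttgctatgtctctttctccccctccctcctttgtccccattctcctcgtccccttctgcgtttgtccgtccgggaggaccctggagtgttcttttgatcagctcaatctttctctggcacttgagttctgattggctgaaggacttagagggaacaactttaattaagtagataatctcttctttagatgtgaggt
Frzb (chr2:80447397-80447646, minus strand): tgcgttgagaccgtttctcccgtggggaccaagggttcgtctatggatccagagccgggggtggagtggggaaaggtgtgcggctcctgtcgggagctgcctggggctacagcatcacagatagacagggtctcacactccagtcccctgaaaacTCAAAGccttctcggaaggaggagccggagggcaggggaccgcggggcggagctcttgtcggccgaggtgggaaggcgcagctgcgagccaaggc
TAATCC was found on either strand in 1 of these 13 promoters, that of Otx2 itself, and in 6.25% of 32817 promoters of the same length. CTTTGA was found in 1 of 13, that of the WNT antagonist gene Frzb, and in 13.8% of all. Otx2 has 4 starts in the RefSeq table, of which 1 is shown. Among the 13, the RefSeq starts of Zic4, Nkd1 and Gbx2 lay 9670, 6279 and 1991 bases from the GENCODE start of their most-read transcript. Those windows may therefore not be the promoters in use. The words cannot coincide, and a match or its absence describes these letters only.

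Of 42 midbrain and hindbrain patterning genes, 15 were tested, 5 were higher in midbrain and none lower, with a median log2 fold change of 1.02 beside 0.00 over all genes. Otx2 (ENSMUSG00000021848.16, chromosome 14, 48657677 to 48673819, minus strand), the homeodomain factor of forebrain and midbrain that is absent from hindbrain, had 14.6 and 15.4 CPM in the midbrain libraries, against 4.01 and 2.63 CPM in the cortex libraries (log2 fold change 2.16 ± 0.23, adjusted p = 0.000422). Nkx6-2 (ENSMUSG00000041309.17, chromosome 7, 139579376 to 139582797, minus strand), a homeodomain repressor of the ventral neural tube that also acts in oligodendrocytes, had 28.2 and 42.05 CPM in the midbrain libraries, against 4.30 and 6.92 CPM in the cortex libraries (log2 fold change 2.65 ± 0.26, adjusted p = 0.000273). In both genes the midbrain libraries stood well clear of the cortex libraries, and replicates of a region lay closer together than the regions did. On the opposite strand, 46.4% of the 3′ end of Nkx6-2 is shared with another gene.

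The Iroquois factors Irx3 (ENSMUSG00000031734.13, chromosome 8, 91798525 to 91802067, minus strand) and Irx5 (ENSMUSG00000031737.11, chromosome 8, 92357625 to 92376286, plus strand), which pattern posterior neural tube, sit near each other on 1 chromosome. Irx3 had 4.94 and 4.49 CPM in the midbrain libraries, against 0.581 and 0.159 CPM in the cortex libraries (log2 fold change 3.54 ± 0.55, adjusted p = 0.00639). Irx5 had 43 and 52 reads in the midbrain libraries, against 3 and 1 reads in the cortex libraries (log2 fold change 4.29 ± 0.73, adjusted p = 0.0102). Gbx2, the factor that meets Otx2 at the midbrain-hindbrain border, had 1.79 and 2.63 CPM in the midbrain libraries, against 0.407 and 0.716 CPM in the cortex libraries (log2 fold change 1.98 ± 0.44, adjusted p = 0.0455). The Gbx2 call was lost without any 1 of the 4 mock libraries, while those of Otx2, Nkx6-2, Irx3 and Irx5 held without each. With limma-voom and library weights the calls of Irx3, Irx5 and Gbx2 were lost, and those of Otx2 and Nkx6-2 were kept.

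Paired by replicate number, Pax3 (9 and 7 reads in midbrain against 1 and 0 in cortex), Foxa1 (5 and 12 against 1 and 0) and Lmx1b (34 and 36 against 11 and 19) were also called higher, which made 8 of 15. En1, the Engrailed factor that marks midbrain and anterior hindbrain, had 21 and 27 reads in midbrain against 5 and 15 in cortex and was not called in either fit (log2 fold change 1.02 ± 0.48, adjusted p = 0.560; adjusted p = 0.0708 paired). The remaining tested members, Nkx2-2, Uncx, Gata2, Dbx2, Tal1 and Fgf17, were called in neither fit. The other 27 genes of the list were too low to test: 7 had no read and no library held more than 6 reads of any. Among these were markers that define midbrain in the embryo, with En2 at 1 and 1 reads in midbrain and 0 in cortex, Pax2 at 3 and 2 against 2 and 0, Pax7 at 1 and 0 against 0 and 0, and Pax5, Fgf8 and Wnt1 at 0 throughout. HOX genes, which mark hindbrain and cord, were near absent from both regions: 1 of 39 was tested and 27 had no read. The tested gene, Hoxc9, had 14 and 3 reads in midbrain against 2 and 3 in cortex and was called in neither fit. Among the 38 not tested, the highest count in a library was 9.

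Among ZIC zinc-finger factors, which act in dorsal neural tube and cerebellum, Zic4 and Zic1 were higher in midbrain. Zic4 had 11.9 and 17.3 CPM in the midbrain libraries, against 2.15 and 3.50 CPM in the cortex libraries (log2 fold change 2.38 ± 0.31, adjusted p = 0.00170). Zic1, which overlaps its start on the opposite strand of chromosome 9, had 4.77 and 5.71 CPM in midbrain against 1.28 and 1.51 CPM in cortex (log2 fold change 1.91 ± 0.28, adjusted p = 0.00452). The 3′ ends of these genes lie apart. Zic2 and Zic5 had log2 fold changes of 0.18 ± 0.61 and 0.16 ± 0.37 and were called in neither fit.

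**Figure D2:**
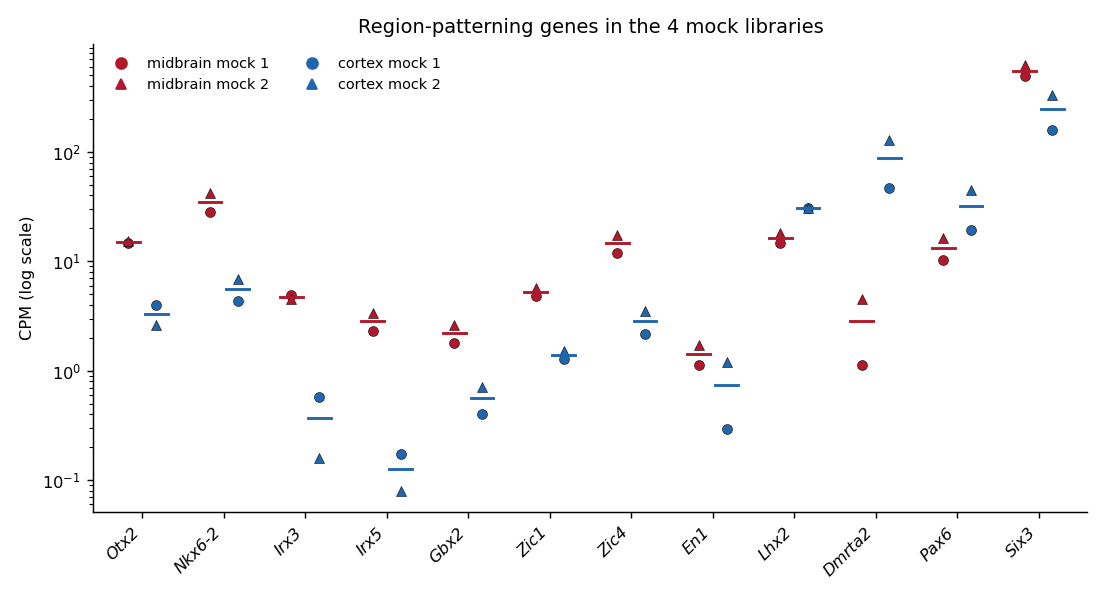
Levels of 12 regional transcription factors in CPM (vertical axis, log scale) in the 4 mock libraries; circles are library 1, triangles library 2, and bars the means, with midbrain in red left of cortex in blue. The first 7 genes and Six3 lie higher in both midbrain libraries (Six3 called in the paired fit alone), Lhx2, Dmrta2 and Pax6 lie lower (Pax6 called in the paired fit alone), and En1 overlaps.

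Of 27 forebrain patterning genes, 19 were tested, 2 were called lower in midbrain and none higher, with a median of -0.35. Dmrta2 (ENSMUSG00000047143.3, chromosome 4, 109978053 to 109983687, plus strand), a doublesex-related factor needed for the caudal and medial cortex, had 1.14 and 4.56 CPM in the midbrain libraries, against 46.8 and 129 CPM in the cortex libraries (log2 fold change -4.96 ± 0.58, adjusted p = 0.000846). The 2 regions differed far more than replicates did, although the replicates of each region lay over 2-fold apart, library 2 higher in both. Lhx2, the LIM factor that specifies cortex, had 14.6 and 18.2 CPM in the midbrain libraries, against 30.9 and 30.6 CPM in the cortex libraries (log2 fold change -0.91 ± 0.20, adjusted p = 0.0410). Its call was lost without cortex library 1, cortex library 2 or midbrain library 1 (adjusted p up to 0.181).

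In the paired fit 7 forebrain genes were lower in midbrain, among them Lhx2, Dmrta2, Pax6 (-1.20, adjusted p = 1.24e-07), Otx1 (-0.91, 2.77e-05), Nr2f1 (-0.64, 4.04e-07) and Sp8 (1 and 0 reads in midbrain against 13 and 10 in cortex, 0.0113). In the same fit 3 were higher. Six3, a factor of the anterior forebrain and eye, had 490.2 and 619.6 CPM in midbrain against 158 and 334 CPM in cortex (1.26, adjusted p = 1.32e-08 paired). Nkx2-1, a factor of the ventral forebrain, had 2.55 and 2.05 CPM in midbrain against 0.465 and 0.477 CPM in cortex (2.27, 0.00280), and Nr2f2 had 5.86 and 5.71 CPM in midbrain against 2.44 and 3.18 CPM in cortex (1.06, 0.00169). Both midbrain libraries lay above both cortex libraries in all 3. Without the block these 3 had adjusted p of 0.0836, 0.0979 and 0.0789. Of the genes that mark the labelled regions, Otx2, Irx3, Irx5, Nkx6-2 and Dmrta2 thus differed in the direction of the labels, and En1 overlapped between them.

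WNT signalling genes formed a group with many higher members. WNT ligands bind Frizzled receptors, secreted SFRP and FRZB proteins bind the ligands, and Nkd1 and Axin2 are feedback inhibitors that the pathway itself induces. Of 37 genes of the list, 21 were tested, 6 were higher and 1 lower in midbrain, with a median of 1.30. Paired, 11 were higher and 3 lower. Of all genes tested, 1.25% were higher and 0.938% lower, and 7.55% and 6.58% when paired. The list was chosen with earlier results of these data known.

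Among ligands, Wnt8b (ENSMUSG00000036961.5, chromosome 19, 44493472 to 44514273, plus strand), which is made in dorsal midline tissue of the embryo, had 8.68 and 19.2 CPM in the midbrain libraries, against 0.349 and 0.239 CPM in the cortex libraries (log2 fold change 5.48 ± 0.52, adjusted p = 0.000207). Wnt3 had 24 and 35 reads in midbrain and 0 in both cortex libraries, which makes it at least 17.2-fold higher in midbrain against a floor of 3 reads over the group (adjusted p = 0.00769). Wnt10a had 38 and 47 reads in midbrain against 3 and 2 in cortex (log2 fold change 3.82 ± 0.39, adjusted p = 0.000336). In all 3 ligands every midbrain library stood above both cortex libraries. Wnt7a had 7.81 and 2.63 CPM in midbrain against 17.5 and 5.89 CPM in cortex, where the regions overlapped (-1.16, adjusted p = 0.446), and was called lower in the paired fit alone (adjusted p = 6.32e-06). Wnt5a (0.50, 0.459; 0.00420 paired) was called higher in the paired fit alone, Wnt5b lower in it alone, and Wnt4, Wnt7b and Wnt9a in neither fit.

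Among antagonists, Frzb had 4.23 and 7.58 CPM in the midbrain libraries, against 0.174 and 0.239 CPM in the cortex libraries (log2 fold change 4.78 ± 0.43, adjusted p = 0.000149). Sfrp5 had 16.5 and 23.1 CPM in midbrain against 5.98 and 8.91 CPM in cortex (log2 fold change 1.42 ± 0.31, adjusted p = 0.0416). Sfrp1 was lower in midbrain, with 18.8 and 25.4 CPM in midbrain against 41.9 and 47.8 CPM in cortex (log2 fold change -1.02 ± 0.19, adjusted p = 0.0197). The feedback inhibitor Nkd1 had 16.1 and 15.1 CPM in the midbrain libraries, against 2.79 and 3.50 CPM in the cortex libraries (log2 fold change 2.31 ± 0.20, adjusted p = 0.000140). Its paralogue Nkd2, not in the list and among the 10 largest rises, had 24.1 and 35.95 CPM in midbrain against 0.988 and 1.43 CPM in cortex (log2 fold change 4.64 ± 0.39, adjusted p = 0.000111). Another 3 genes of the pathway were chosen after their values were seen. Ccn4, a secreted protein that WNT signalling induces, had 17.1 and 20.6 CPM in midbrain against 1.63 and 1.99 CPM in cortex (3.38 ± 0.35, adjusted p = 0.000372). Also higher were the Frizzled receptor Fzd10 (2.52 ± 0.51, adjusted p = 0.0352) and the WNT inhibitor Apcdd1 (2.17 ± 0.43, adjusted p = 0.0255). Axin2 and Lef1, common readouts of the pathway, had log2 fold changes of 1.30 (adjusted p = 0.689; 0.0976 paired) and 2.62 (0.0658; 0.00173 paired), so that Lef1 was called higher in the paired fit alone and Axin2 in neither. The direct WNT target Sp5 (3.25, adjusted p = 0.00395 paired), the WNT agonist Rspo3 (3.93, 8.06e-05) and Dkk3 (0.75, 1.72e-06) were likewise called higher only when paired. Some calls rested on particular libraries: Sfrp5 was lost without cortex library 1 or midbrain library 2 (adjusted p up to 0.174), Sfrp1 without cortex library 2 or midbrain library 1 (0.102), and Fzd10 and Apcdd1 without any 1 of the 4 (0.204 and 0.0936).

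Collagen genes were higher in midbrain wherever a call was made. All 20 genes of the list were tested, 8 were higher and none lower, with a median of 1.07. In the paired fit 15 were higher and none lower. Of all genes tested, 1.25% were higher and 0.938% lower, and 7.55% and 6.58% when paired. Col6a2 and Col6a1, the adjoining genes of 2 chains of the microfibrillar collagen VI on chromosome 10, led the group. Col6a2 had 237 and 285 CPM in the midbrain libraries, against 16.3 and 24.1 CPM in the cortex libraries (log2 fold change 3.69 ± 0.23, adjusted p = 2.45e-05). Col6a1 had 138 and 144 CPM in the midbrain libraries, against 16.6 and 15.9 CPM in the cortex libraries (log2 fold change 3.12 ± 0.19, adjusted p = 2.45e-05). Both midbrain libraries lay above both cortex libraries by a wide margin.

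Both chains of the fibrillar collagen I were higher. Col1a1 had 793 and 1147 CPM in midbrain against 306 and 413 CPM in cortex (1.43 ± 0.23, adjusted p = 0.00827), and Col1a2 had 370.2 and 334 CPM in midbrain against 136 and 136 CPM in cortex (1.37 ± 0.17, adjusted p = 0.00139). So were Col5a1 (1.82 ± 0.30, adjusted p = 0.00906), which joins collagen I fibrils, the basement-membrane chain Col4a2 (1.07 ± 0.20, adjusted p = 0.0196), Col16a1 (1.55 ± 0.25, adjusted p = 0.00795) and Col15a1 (2.29 ± 0.43, adjusted p = 0.0190). The calls of Col4a2 and Col15a1 were lost without cortex library 1 or midbrain library 2 (adjusted p up to 0.0736 and 0.0921). Col3a1 (-0.36) and Col6a3 (0.15), the third chain of collagen VI, were called in neither fit.

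Of 34 other matrix and crosslinking genes, 33 were tested, 11 were higher and 1 lower, with a median of 0.97. When paired, 19 were higher and 4 lower. The shares over all genes tested were 1.25% higher and 0.938% lower, and 7.55% and 6.58% when paired. Fbln5 (ENSMUSG00000021186.9, chromosome 12, 101746565 to 101819055, minus strand), which assembles elastic fibres and also stands in the list of reactive astrocyte genes, had 122 and 140.3 CPM in the midbrain libraries, against 4.65 and 5.49 CPM in the cortex libraries (log2 fold change 4.70 ± 0.20, adjusted p = 1.13e-06). Postn, a matricellular protein that binds collagen, had 35.8 and 30.1 CPM in the midbrain libraries, against 0.988 and 0.796 CPM in the cortex libraries (log2 fold change 5.17 ± 0.42, adjusted p = 0.000101). Elastin itself, Eln, had 107 and 102 CPM in midbrain against 7.38 and 9.07 CPM in cortex (log2 fold change 3.67 ± 0.33, adjusted p = 0.000149). The microfibril gene Fbn1 had 53.3 and 68.1 CPM in midbrain against 10.1 and 13.9 CPM in cortex (log2 fold change 2.34 ± 0.22, adjusted p = 0.000197). Among the lysyl oxidases, which crosslink elastin and collagen, Loxl1 had 80.1 and 85.4 CPM in midbrain against 17.1 and 15.4 CPM in cortex (log2 fold change 2.34 ± 0.17, adjusted p = 3.58e-05), and Lox was higher too (1.99 ± 0.34, adjusted p = 0.0108). Not every relative of these genes was higher. The fibulin Fbln1 was called lower when paired (-0.99, adjusted p = 1.11e-09) and not otherwise (-1.01 ± 0.29, adjusted p = 0.145). Loxl2 was called higher only when paired (0.71, adjusted p = 6.65e-05), and the fibrillin Fbn2 in neither fit (1.15 ± 0.52, adjusted p = 0.513).

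The laminin chains Lama4 (79.4 and 141 CPM in midbrain against 10.5 and 17.3 CPM in cortex; 2.99 ± 0.30, adjusted p = 0.000319) and Lamc1 (1.06 ± 0.18, adjusted p = 0.0114), and Fbln2, Matn2 and Tnc (2.07, 2.32 and 1.75) completed the higher members. Tenascin-R, Tnr, a perineuronal matrix protein, was the lower one, with 9.55 and 6.93 CPM in midbrain against 18.6 and 19.6 CPM in cortex (log2 fold change -1.21 ± 0.27, adjusted p = 0.0427). However, 65.5% of its 3′ end is shared with a gene on the opposite strand, so its reads are uncertain. Its call was lost without either cortex library or without midbrain library 2 (adjusted p up to 0.166), and that of Tnc without cortex library 1 or midbrain library 2 (0.133). Fibronectin, Fn1, had 57.7 and 59.8 CPM in midbrain against 46.4 and 47.02 CPM in cortex and was called only when paired (0.33, adjusted p = 0.0411), and Lamb2 was called in neither fit (0.21).

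Fibroblast, meningeal and mural cells also make collagens, and their markers were read in both regions. Of 20 fibroblast and meningeal markers, 19 were tested, 4 were higher (Col1a1, Col1a2, Prrx1 and Twist1) and 2 lower (Islr and Foxd1), with a median of 0.16. Paired, 8 were higher and 5 lower. Their summed level was 2473 and 3017 CPM in midbrain, against 1755 and 2307 CPM in cortex, and Slc22a6 alone had no read. That sum includes the collagens Col1a1 (means of 970 CPM in midbrain and 359 CPM in cortex) and Col1a2 (352 and 136 CPM). It also includes Thy1, with means of 547 CPM in midbrain and 754 CPM in cortex. The higher sum in midbrain therefore does not speak for the markers other than the collagens. The meningeal factor Foxd1 had 0.380 and 0.321 CPM in midbrain against 4.12 and 1.99 CPM in cortex (log2 fold change -3.09 ± 0.64, adjusted p = 0.0316). Twist1, another factor of mesenchymal cells, had 6.998 and 7.13 CPM in midbrain against 1.57 and 0.955 CPM in cortex (log2 fold change 2.45 ± 0.44, adjusted p = 0.0152). Foxc1 (-0.08) and Ogn (-0.07) were called in neither fit, and Dcn (0.82, adjusted p = 0.0874; 2.46e-05 paired) and Lum (1.64; 0.0395 paired) were called higher only when paired, as were S100a6 and Igfbp2. Called lower only when paired were Thy1 (-0.45, adjusted p = 8.42e-05), the mesenchymal factor Tbx18 (-2.71, adjusted p = 0.00654) and the proteoglycan Fmod (-1.16, adjusted p = 0.000375). Of the 20 markers, 7 stand in another list too. Of 14 pericyte and smooth muscle markers, 10 were tested and 1 was called, Acta2, with 862 and 670.1 CPM in midbrain against 329.6 and 262 CPM in cortex (log2 fold change 1.37 ± 0.20, adjusted p = 0.00424). Paired, 6 of the 10 were higher and 1 lower. Their summed level was 1281 and 1276 CPM in midbrain, against 668 and 769 CPM in cortex. Acta2 is included in these sums and is their largest member in midbrain, so the sums do not speak for the other markers. The part of such cells in the matrix differences was not tested.

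**Figure D3:**
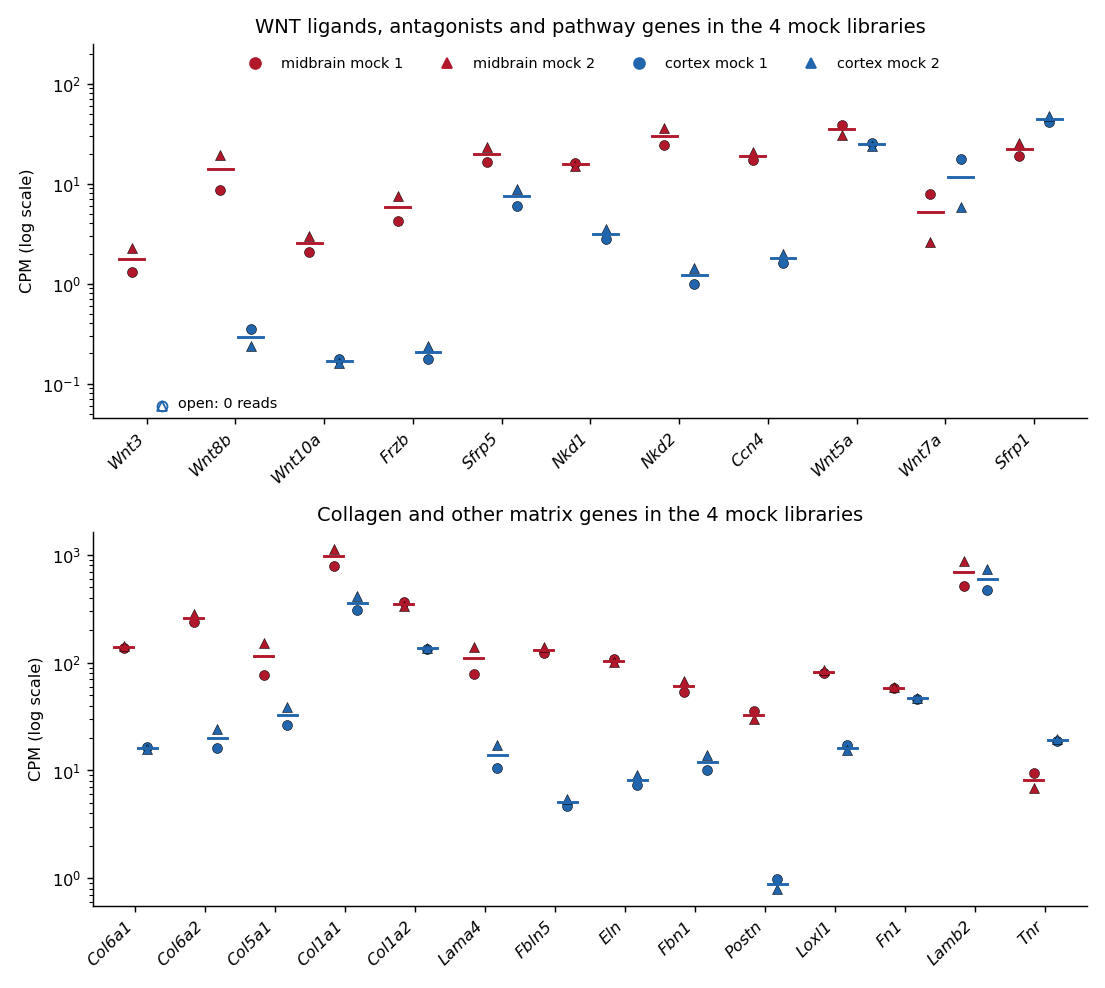
Levels in CPM (vertical axes, log scale) of 11 WNT pathway genes (top) and 14 matrix genes (bottom) in the 4 mock libraries; circles are library 1, triangles library 2, bars the means, midbrain in red left of cortex in blue, and open symbols mark 0 reads. Both midbrain libraries lie above both cortex libraries for Wnt3, Wnt8b, Frzb, Col6a1, Fbln5 and Postn, Sfrp1 and Tnr lie below, and Wnt7a and Lamb2 overlap.

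Genes that define astrocytes were read in all mock libraries. Of 36 astrocyte markers, 35 were tested, 30 had at least 1 CPM in every mock library, and 2 were called higher and 2 lower, with a median of -0.18. The markers were thus called more often than the 1.25% higher and 0.938% lower of all genes tested. Gfap, the intermediate filament of astrocytes, had 9610.4 and 12580.00 CPM in the midbrain libraries, against 11107 and 19407 CPM in the cortex libraries (log2 fold change -0.46 ± 0.28, adjusted p = 0.779). The fixed markers Aldh1l1 (0.55), Slc1a3 (-0.04), Aqp4 (-0.29), Gja1 (-0.01) and Sox9 (-0.20) had adjusted p from 0.833 to 1. For these markers the groups of libraries overlapped.

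The called astrocyte genes that were higher in midbrain both encode secreted proteins. Agt, the precursor of angiotensin, which astrocytes of subcortical regions make, had 13.6 and 10.02 CPM in the midbrain libraries, against 1.92 and 0.875 CPM in the cortex libraries (log2 fold change 3.03 ± 0.31, adjusted p = 0.000319). Sparcl1, or hevin, which promotes synapses, had 136 and 97.6 CPM in the midbrain libraries, against 58.2 and 45.3 CPM in the cortex libraries (log2 fold change 1.18 ± 0.20, adjusted p = 0.0116). The glypican Gpc5 was lower, with 0.108 and 0.449 CPM in midbrain against 2.03 and 2.78 CPM in cortex (log2 fold change -3.10 ± 0.61, adjusted p = 0.0245). Its call was lost without cortex library 2 or midbrain library 1 (adjusted p up to 0.120). Paired, 4 markers were higher, among them Aldh1l1 (0.53) and Slc1a2 (0.42), and 11 lower, among them Gfap (-0.42), Aqp4 (-0.30), Aldoc, Clu, Acsbg1, Kcnj10 and Mlc1. These counts of the 35 tested stand beside 7.55% higher and 6.58% lower of all genes tested. With the block fitted to the 4 mock libraries alone, Aldh1l1 was called (adjusted p = 2.48e-05), while Gfap (0.0940) and Aqp4 (0.0536) were not. The paired calls of Gfap and Aqp4 thus rest on a spread estimated with the shPTB libraries. The fit to 4 libraries left few residual degrees of freedom, so it cannot order these calls by strength. Without 1 mock library and with no block, Aldh1l1 lay between -0.16 and 1.17. The 3′ end of Aldh1l1 is 45.7% shared with a gene on the opposite strand.

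Retinoic acid is made from retinol by aldehyde dehydrogenases and acts through RAR receptors. Of 19 retinoid genes, 17 were tested, 1 was higher and 3 lower, and 3 and 5 when paired. Stra6 (ENSMUSG00000032327.14, chromosome 9, 58063788 to 58153996, plus strand), the receptor through which cells take up retinol, had 1.74 and 2.05 CPM in the midbrain libraries, against 11.04 and 23.6 CPM in the cortex libraries (log2 fold change -3.18 ± 0.36, adjusted p = 0.000610). The synthetic enzyme Aldh1a2 had 1.74 and 2.38 CPM in midbrain against 4.71 and 5.81 CPM in cortex (log2 fold change -1.35 ± 0.23, adjusted p = 0.0116). The receptor gene Rarb, itself induced by retinoic acid, had 1.46 and 1.22 CPM in midbrain against 6.33 and 4.14 CPM in cortex (log2 fold change -1.96 ± 0.35, adjusted p = 0.0153). The cellular binding protein Crabp1 was higher, with 426 and 637 CPM in the midbrain libraries, against 111 and 226 CPM in the cortex libraries (log2 fold change 1.66 ± 0.30, adjusted p = 0.0158). The end of Rarb lies wholly within a gene on the opposite strand, so its reads are uncertain. The call of Aldh1a2 was lost without midbrain library 1 (adjusted p = 0.0777), that of Crabp1 without midbrain library 2 (0.0607), and that of Rarb without cortex library 1 or midbrain library 2 (up to 0.0752).

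Axon guidance and growth factor genes held differences in both directions. Of 47 guidance genes, 35 were tested, 3 were higher and 2 lower, and 8 and 4 when paired. Over all genes tested, 7.55% were higher and 6.58% lower when paired. Slit2, a midline repellent, had 16.6 and 16.1 CPM in the midbrain libraries, against 2.50 and 2.71 CPM in the cortex libraries (log2 fold change 2.65 ± 0.24, adjusted p = 0.000178). The Eph receptor Epha7 had 3.47 and 3.53 CPM in midbrain against 0.465 and 0.955 CPM in cortex (log2 fold change 2.33 ± 0.50, adjusted p = 0.0395). Another receptor of that family, Epha5, was lower, with 3.36 and 4.04 CPM in midbrain against 14.5 and 15.8 CPM in cortex (log2 fold change -2.03 ± 0.20, adjusted p = 0.000302). Epha4 was lower too (-0.78 ± 0.18, adjusted p = 0.0488), and Ephb4 was higher (1.26 ± 0.28, adjusted p = 0.0459). Of 34 neurotrophic and synaptogenic factors, 25 were tested, 2 were higher and 2 lower, and 6 and 4 when paired. Fgf1 had 3.36 and 3.34 CPM in midbrain against 15.2 and 12.97 CPM in cortex (log2 fold change -2.07 ± 0.21, adjusted p = 0.000319). Fgf9 had 44 and 42 reads in midbrain against 5 and 0 in cortex (3.86 ± 0.83, adjusted p = 0.0399). The heparin-binding factor midkine, Mdk, had 49.96 and 66.9 CPM in midbrain against 17.9 and 30.4 CPM in cortex (log2 fold change 1.28 ± 0.24, adjusted p = 0.0183). Igf2 was lower (22.1 and 32.9 CPM in midbrain against 70.1 and 108 CPM in cortex; -1.70 ± 0.28, adjusted p = 0.00979), but its whole 3′ end is shared with another gene on the same strand. Epha7, Epha4, Fgf9 and Mdk lost their calls without 1 or more of the mock libraries. Whether the calls of Ephb4, and of Prrx1, Aspg and S100a10 named elsewhere, held without each library is not given.

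In the BMP and TGF-beta list, 1 of 16 tested genes was higher, the activin antagonist follistatin, Fst (9.22 and 11.04 CPM in midbrain against 2.50 and 2.86 CPM in cortex; 1.92 ± 0.32, adjusted p = 0.0183). Another was lower, the BMP target Id2 (-0.70 ± 0.15, adjusted p = 0.0429). In the hedgehog list 1 of 12 was lower, the co-receptor Gas1 (-1.33 ± 0.30, adjusted p = 0.0485). Among 19 progenitor genes, Tnc was higher and the fatty-acid binding protein gene of radial glia, Fabp7, lower (-1.14 ± 0.26, adjusted p = 0.0478). Paired, 4 genes were higher and 4 lower in the BMP and TGF-beta list, 1 and 3 in the hedgehog list, and 5 and 2 among the progenitor genes. In that fit 7.55% of all genes tested were higher and 6.58% lower. Fst lost its call without cortex library 1 or midbrain library 2 (0.0802), Gas1 likewise (0.212), Id2 without cortex library 1 or either midbrain library (0.151), and Fabp7 without any 1 of the 4 (0.228).

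Reactive astrocyte genes held calls in both directions. Of 39, 34 were tested, 4 were higher (Fbln5, Hspb1, Aspg and S100a10) and 1 lower, with a median of 0.06. Paired, 8 were higher and 6 lower. The small heat-shock protein gene Hspb1 had 181 and 183 CPM in the midbrain libraries, against 33.8 and 35.6 CPM in the cortex libraries (log2 fold change 2.39 ± 0.22, adjusted p = 0.000158). Complement C3, a marker of inflammatory astrocytes, had 106 and 154 CPM in the midbrain libraries, against 268 and 404 CPM in the cortex libraries (log2 fold change -1.37 ± 0.25, adjusted p = 0.0160). Its call was lost without midbrain library 1 (adjusted p = 0.0787). Interferon-stimulated genes (18 tested), MHC class I genes (10), DNA replication and mitosis genes (30), cholesterol synthesis genes (22), immediate early genes (15) and mitochondrially encoded genes (13) held no call. In the paired fit 10 of the 13 mitochondrial genes were lower and 5 of the 15 immediate early genes higher. It also called 3 cholesterol genes higher, 1 replication gene lower, 1 interferon-stimulated gene each way, and 1 MHC class I gene higher and 2 lower. Over all genes tested the paired fit called 7.55% higher and 6.58% lower, so a count of 1 says little about a list. In the list of unfolded protein and stress genes, 2 of the integrated stress response, Chac1 (1.10 ± 0.24, adjusted p = 0.0416) and Trib3 (1.72 ± 0.30, adjusted p = 0.0121), were higher. Of 24 glycolysis and hypoxia-induced genes, the enzyme gene Pfkp was lower (106 and 91.9 CPM in midbrain against 217 and 184 CPM in cortex; -1.02 ± 0.17, adjusted p = 0.00914). Paired, 8 of the 18 stress genes were higher and 1 lower, and 6 and 5 of the glycolysis and hypoxia genes. Trib3 lost its call without cortex library 1 (0.0681), and Chac1 without cortex library 1 or midbrain library 2 (0.157).

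Ptbp1, the RNA-binding protein whose hairpin the other cultures carry, had 208 and 249.98 CPM in the midbrain libraries, against 173 and 251 CPM in the cortex libraries (log2 fold change 0.11 ± 0.20, adjusted p = 1). Its neural paralogue Ptbp2 had 6.46 and 8.15 CPM in midbrain against 5.69 and 10.4 CPM in cortex (log2 fold change -0.13 ± 0.26, adjusted p = 1). No gene of the list of PTB paralogues and the REST axis was called (15 tested), paired or not. Xist and the Y-linked gene Ddx3y were both read in all 4 libraries and overlapped between regions (-0.55 and 0.51; Xist was called lower in the paired fit, adjusted p = 0.00233).

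Markers of other cells were read in both regions. Between the regions, 3 of 12 tested oligodendrocyte markers, 2 of 7 endothelial markers and 3 of 16 ependymal and choroid plexus markers were called, shares above the 2.19% of all genes tested. Of 20 microglia markers, 19 had at least 1 CPM in every mock library, none was called (3 lower when paired), and their summed level was 2194 and 2985 CPM in midbrain, against 2146 and 3187 CPM in cortex. Among the oligodendrocyte markers, Cnp (209 and 243 CPM in midbrain against 109.8 and 133 CPM in cortex; 0.90 ± 0.18, adjusted p = 0.0238) and Mbp (1.33 ± 0.23, adjusted p = 0.0124) were higher. The tight-junction gene Cldn11 was lower, with 0.759 and 0.449 CPM in midbrain against 8.19 and 5.89 CPM in cortex (-3.50 ± 0.34, adjusted p = 0.000251). Among the endothelial markers, the VEGF receptor Kdr (11.4 and 18.3 CPM in midbrain against 2.21 and 4.53 CPM in cortex; 2.15 ± 0.35, adjusted p = 0.00770) was higher. The organic anion transporter Slco1a4 of the same list was lower, with 8.63 and 7.25 CPM in midbrain against 49.6 and 27.9 CPM in cortex (-2.29 ± 0.26, adjusted p = 0.000610). The summed level of the endothelial markers was 27.0 and 32.6 CPM in midbrain, against 58.3 and 38.0 CPM in cortex. Slco1a4 made up most of the cortex sums and Kdr was the largest member in midbrain. The sums therefore do not speak for the other endothelial markers. Among the ependymal and choroid plexus markers, Otx2 and Ttr (2.01 ± 0.34, adjusted p = 0.0107) were higher. The water channel Aqp1 was lower, with 4.18 and 5.26 CPM in midbrain against 18.6 and 20.9 CPM in cortex (-2.07 ± 0.25, adjusted p = 0.00117). The cilium genes of that list, such as Foxj1 (-0.32) and Rsph1 (0.09), held no call. Of all genes tested, the paired fit called 7.55% higher and 6.58% lower. In it 3 oligodendrocyte markers were higher and 3 lower, 2 and 2 endothelial markers, and 4 and 2 ependymal and choroid plexus markers. The part of such cells in the region differences was not tested.

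Of 25 tested pan-neuronal markers, Gap43, a growth-cone protein, was lower, with 14.5 and 15.9 CPM in midbrain against 51.2 and 36.3 CPM in cortex (log2 fold change -1.52 ± 0.19, adjusted p = 0.00151). The glutamate receptor subunit Gria2 (2.98 and 3.15 CPM in midbrain against 10.7 and 9.15 CPM in cortex; -1.69 ± 0.24, adjusted p = 0.00353) and the kinase gene Camk2a (-0.98 ± 0.19, adjusted p = 0.0255) were lower too. The calcium buffer Pvalb was higher, with 51.5 and 46.9 CPM in midbrain against 24.5 and 30.2 CPM in cortex (0.85 ± 0.18, adjusted p = 0.0312). No neurogenic transcription factor (11 tested) and no dopaminergic neuron gene (8 tested) was called. Paired, 2 pan-neuronal markers were higher and 7 lower, 2 neurogenic factors were higher and 1 lower, and 2 dopaminergic genes were higher and none lower. In the GABAergic list (15 tested) 2 were then higher and 1 lower, and in the glutamatergic list (9 tested) 1 and 2. These paired counts stand beside 7.55% higher and 6.58% lower of all genes tested. Mbp, Cnp, Ttr, Camk2a and Pvalb lost their calls without 1 or more mock libraries (adjusted p up to 0.0902, 0.0910, 0.123, 0.131 and 0.104).

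Beyond the lists, the 10 largest rises with at least 10 CPM in the higher region also held Gabbr2, a subunit of the GABA-B receptor, with 10.9 and 20.7 CPM in the midbrain libraries, against 0.755 and 1.35 CPM in the cortex libraries (log2 fold change 3.93 ± 0.36, adjusted p = 0.000181). Pcp4l1 was another, with 54.3 and 40.8 CPM in midbrain against 3.78 and 2.94 CPM in cortex (log2 fold change 3.81 ± 0.30, adjusted p = 7.83e-05). Plac9b was a further one (3.64 ± 0.49, adjusted p = 0.00240), but its end is wholly shared with another gene. The 10 largest falls, beside Dmrta2, Stra6, Islr and Slco1a4, held Spon2, a secreted protein of the spondin family, with 1.68 and 2.31 CPM in the midbrain libraries, against 16.9 and 20.8 CPM in the cortex libraries (log2 fold change -3.24 ± 0.21, adjusted p = 2.45e-05). Tmem132b had 14.9 and 17.8 CPM in midbrain against 85.8 and 109 CPM in cortex (log2 fold change -2.57 ± 0.19, adjusted p = 4.77e-05). Islr, a secreted leucine-rich repeat protein, had 9.17 and 9.89 CPM in the midbrain libraries, against 55.1 and 59.4 CPM in the cortex libraries (log2 fold change -2.58 ± 0.17, adjusted p = 2.45e-05). The lipid carrier Apod had 4.18 and 3.47 CPM in midbrain against 19.7 and 15.8 CPM in cortex (log2 fold change -2.21 ± 0.20, adjusted p = 0.000149). The adhesion molecule Cadm2 had 11.6 and 11.9 CPM in midbrain against 52.4 and 50.7 CPM in cortex (-2.13 ± 0.17, adjusted p = 7.83e-05). Cbr2, a carbonyl reductase whose end is 42.1% shared with a gene on the same strand, had 7.81 and 7.38 CPM in midbrain against 38.6 and 37.2 CPM in cortex (-2.32 ± 0.25, adjusted p = 0.000540). Glycam1, a mucin-like glycoprotein, had 2.88 and 1.86 CPM in midbrain against 17.2 and 15.2 CPM in cortex (-2.76 ± 0.31, adjusted p = 0.000611). In each of these genes the midbrain libraries lay several-fold away from the cortex libraries, and the call held without each mock library.

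Some called genes lie side by side. Among genes tested and ordered along the chromosomes, 6 neighbouring pairs without overlap were both higher in midbrain and 3 both lower. Col6a2 and Col6a1 were such a pair, and so were Stra6 and Islr, which are 2271 bases apart on chromosome 9. Slco1c1 and Slco1a4 (235262 bases apart) and Tnc and Pappa (1077158 bases apart) were others. Neighbours are next to each other in the order of tested genes and can lie far apart. A higher neighbour was held by 12 of the 183 higher genes (6.56%), beside 2.28% of all genes tested, and a lower neighbour by 6 of the 137 lower genes (4.38%), beside 1.71% of all.

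The replicate numbers of the regions moved together in mock. Over 14607 genes, the difference between library 1 and library 2 correlated between midbrain and cortex with r = 0.715, against 0.0209 in 2-week and 0.00417 in 4-week shPTB cultures; these r are across genes, which are not independent. For 80.1% of genes library 1 lay on the same side of library 2 in both regions. Replicates differed more than 2-fold for 15.8% of genes in midbrain mock and 18.4% in cortex mock, against 6.44 to 10.5% in the shPTB groups. The labels do not say what the numbers mark, and 2 pairs cannot show a shared origin. Taking the number as a block lowered the median standard error over all genes to 0.204, from 0.339 without it, and added 1744 calls.

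**Figure D4:**
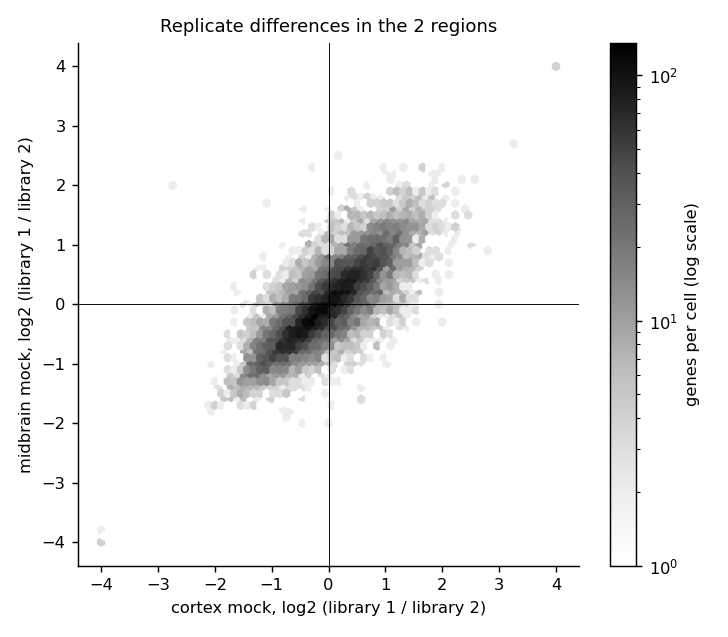
Log2 ratio of mock library 1 to library 2 in midbrain (vertical axis) against that in cortex (horizontal axis) for the 14607 genes tested, as the density of genes on a log grey scale; ratios beyond 4 are drawn at 4. The cloud runs along the diagonal (r = 0.715), so a gene high in midbrain library 1 tended to be high in cortex library 1.

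The region difference was set beside that in shPTB cultures, whose libraries the mock contrast does not use although the fits share 1 estimate of the spread. At 2 weeks, 430 genes (2.94%) separated the regions, 294 higher and 136 lower in midbrain, and at 4 weeks 1167 (7.99%), 800 higher and 367 lower. Without any 1 of the 4 libraries of that time, these counts were 70 to 94 at 2 weeks and 442 to 516 at 4 weeks. Scaled to library totals, the higher share was 86.6% of 1466 calls at 4 weeks, beside 68.6% of 1167 with TMM. Mitochondrial RNA took 36.4 and 37.2% of reads in midbrain and 47.7 and 48.3% in cortex at that time, and its part in the split was not tested. Of the 320 mock calls, 97 were called in the same direction at 2 weeks (30.3% of the mock calls and 22.6% of the 2-week calls) and 144 at 4 weeks (45% and 12.3%). Of the 183 higher genes, 70 recurred at 2 and 103 at 4 weeks, beside 2.01% and 5.48% of all genes called higher there. Of the 137 lower genes, 27 and 41 recurred, beside 0.931% and 2.51%. In all 3 states 85 genes were called in the same direction, 64 higher and 21 lower in midbrain.

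Otx2, Irx3, Irx5, Gbx2, Zic1 and Zic4 were also called higher in midbrain at both times. Otx2 had 26.4 and 23.9 CPM in midbrain against 3.18 and 3.89 CPM in cortex at 2 weeks (2.82 ± 0.25, adjusted p = 0.000450). It had 29.4 and 30.4 CPM in midbrain against 3.30 and 4.23 CPM in cortex at 4 weeks (2.99 ± 0.25, adjusted p = 6.71e-05). Nkx6-2 was called at 4 weeks (1.0 ± 0.25, adjusted p = 0.0292) and not at 2 weeks (0.77 ± 0.25, adjusted p = 0.144). Dmrta2 was also lower in midbrain, with 23.6 and 19.97 CPM in midbrain against 91.5 and 103 CPM in cortex at 2 weeks (-2.15 ± 0.51, adjusted p = 0.0471). It had 16.4 and 17.01 CPM in midbrain against 85.9 and 90.9 CPM in cortex at 4 weeks (-2.40 ± 0.52, adjusted p = 0.0155). Agt, Col6a1, Col6a2, Fbln5, Col1a1, Crabp1, Fgf1 and Tnr were also called in the same direction at both times. Lhx2 was called at 4 weeks (-0.86 ± 0.21, adjusted p = 0.0301) and not at 2 weeks (-0.79 ± 0.21, adjusted p = 0.0771).

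The difference itself changed for 100 genes between mock and 2 weeks (0.685% of those tested), by the interaction test, in the direction of higher in midbrain for 62 (0.424%) and of lower for 38 (0.260%). Between mock and 4 weeks it changed for 372 (2.55%), 278 (1.90%) towards higher and 94 (0.644%) towards lower. Of the 320 mock calls, 60 and 95 were among them. Without 1 library of the shPTB time, 26 to 36 genes were called at 2 weeks and 138 to 168 at 4 weeks, and without cortex mock library 2 the 2-week count was 163. Wnt8b, far higher in midbrain mock cultures, had 3.18 and 4.15 CPM in midbrain against 3.11 and 1.73 CPM in cortex at 4 weeks (change of the difference -4.88 ± 0.73, adjusted p = 0.00477). Mbp was higher in midbrain mock cultures and had 3.73 and 4.29 CPM in midbrain against 37.4 and 35.6 CPM in cortex at 4 weeks (-4.52 ± 0.32, adjusted p = 7.26e-05). Sparcl1, higher in midbrain mock cultures, had 96.7 and 90.9 CPM in midbrain against 172 and 178 CPM in cortex at 4 weeks (-2.08 ± 0.29, adjusted p = 0.00313). Apod, lower in midbrain mock cultures, had 267 and 237 CPM in midbrain against 126 and 117 CPM in cortex (3.26 ± 0.27, adjusted p = 0.000126). Of the 320 mock calls, 13 were called in the opposite direction at 2 weeks, 36 at 4 weeks and 10 at both.

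**Figure D5:**
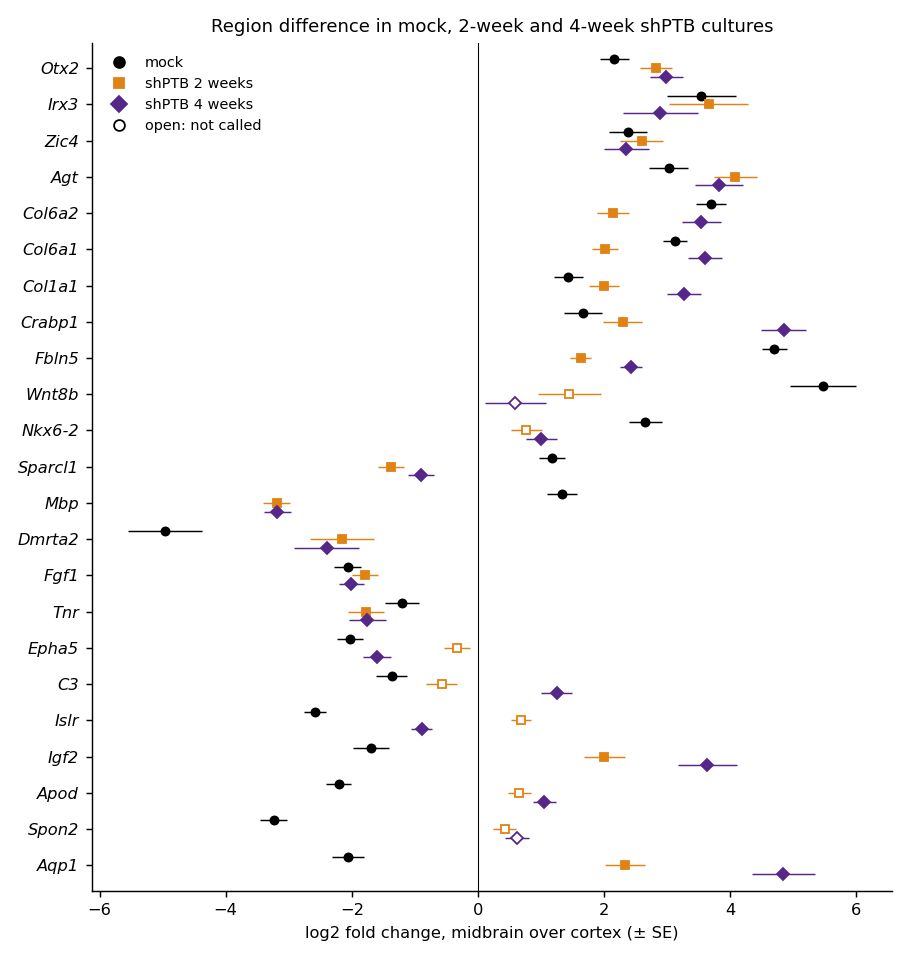
Log2 fold change of midbrain over cortex (horizontal axis, ± SE) for 23 named genes in mock (black), 2-week (orange) and 4-week (purple) shPTB cultures, with open symbols where the adjusted p was over the threshold. Otx2, Irx3, Zic4 and Agt stay on the right in all 3 states and Dmrta2 and Fgf1 on the left, while Mbp, Sparcl1, Igf2, Apod and Aqp1 change sides.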

How the data were processed

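Total RNA of mouse astrocyte cultures was copied with a biotinylated primer, captured on streptavidin beads and given a randomly primed second strand, per the labels' protocols. Where along a transcript the reads lie was not tested. The authors deposited estimated counts and TPM per transcript, and the submitters' processing notes name cutadapt 2.3, Salmon 0.14.1, DESeq2 and mm10. Which annotation release served is not stated in those notes. GENCODE M21 matched 140137 of 140658 transcripts, and the 521 others carried 0.0547 to 0.129% of reads and were not used. Sums of the estimated counts over 54356 genes were rounded, filtered (filterByExpr, minimum count 10 and total 15) and fitted with TMM in edgeR 4.0.16 (R 4.3.3), 6 groups and 12 libraries (common dispersion 0.0550, 6 residual degrees of freedom). TPM was not used in tests. Totals were 6022098 to 11385761 reads.

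Alternatives were other scalings, filters, DESeq2 1.42.0, limma-voom (limma 3.58.1), a transcript-length offset, replicate blocks and fewer libraries. Scripts were tested on simulated counts. Members and the 36 lists (774 genes) were chosen with earlier results of these data known. Named genes were all called patterning genes, up to 2 called genes per direction of each other list, the 10 largest changes in each direction among genes averaging 10 CPM or more in the higher region, and 10 fixed genes (Gfap, Slc1a3, Aldh1l1, Aqp4, Gja1, Sox9, Ptbp1, Ptbp2, Xist, Ddx3y). A few genes that the rule or the lists hold are not reported here. Further members of the lists were named for completeness after their values were seen. A shared 3′ end is the share of 31-base words of a gene's last 500 bases found in another gene.

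The replicate numbers of the mock libraries deviated together (r = 0.715), but there are only 2 pairs and no label says what a number marks. The fit paired by replicate number is therefore given as an alternative, and paired counts stand beside the unpaired ones. Counts of every list are to be read against the 1.25% higher and 0.938% lower of all genes tested. Paired counts are to be read against the 7.55% higher and 6.58% lower of that fit.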

Additional observations from a re-analysis of the deposited data

Results flagged for a closer look

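Across the states of the culture, the region difference changed for 100 genes between mock and 2 weeks of shPTB and for 372 between mock and 4 weeks, by the interaction contrast in the edgeR fit. Of the called genes named in the text, the following met that test. Values are log2, the shPTB region difference minus the mock region difference, both midbrain over cortex.

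At 2 weeks the difference was more negative than in mock for genes that were higher in midbrain mock cultures: Mbp (-4.53), Wnt8b (-4.03), Gabbr2 (-3.12), Fbln5 (-3.07), Nkd1 (-3.00), Ccn4 (-2.89), Lama4 (-2.62), Sparcl1 (-2.55), Col16a1 (-2.25), Nkx6-2 (-1.89) and Loxl1 (-1.47). It was more positive for genes that were lower in midbrain mock cultures: Cbr2 (4.55), Aqp1 (4.39), Igf2 (3.70), Spon2 (3.66), Stra6 (3.56), Islr (3.26), Glycam1 (3.25), Apod (2.87), Aldh1a2 (2.12), Slco1a4 (2.05), Tmem132b (2.05) and Epha5 (1.69).

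At 4 weeks the difference was likewise more negative than in mock for Wnt8b (-4.88), Mbp (-4.52), Nkd1 (-3.57), Ccn4 (-3.07), Gabbr2 (-2.55), Fbln5 (-2.26), Sparcl1 (-2.08), Col16a1 (-1.99), Lama4 (-1.95), Nkx6-2 (-1.65), Cnp (-1.10) and Loxl1 (-1.06), all higher in midbrain mock cultures. It was more positive for Glycam1 (7.45), Aqp1 (6.91), Cbr2 (6.89), Igf2 (5.33), Spon2 (3.86), Cldn11 (3.44), Aldh1a2 (3.31), Apod (3.26), Stra6 (3.08), C3 (2.62), Pfkp (2.15), Islr (1.69), Cadm2 (1.43) and Tmem132b (1.42), all lower in midbrain mock cultures. It was also more positive for Crabp1 (3.19), Col1a1 (1.84), Col1a2 (1.56) and Pvalb (1.20), which were already higher in midbrain mock cultures. In the cortex libraries at 4 weeks Cbr2 had 0 and 0.192 CPM, Aqp1 0.183 and 0.192 CPM and Glycam1 0.183 and 0.577 CPM, so their fitted values depend on the prior count and are no bounds. The genes were called in mock first, so a difference that is smaller elsewhere is favoured by that choice. Groups of 2 libraries were not screened for outlying samples.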

How the results depend on the processing

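The mock count of 320 was 322 with RLE scaling, 302 with library totals, 354 with DESeq2, 312 with a stricter level filter, and 242 to 325 without 1 mock library. It moved to 556 with no count filter, 67 with limma-voom and library weights, 163 with a transcript-length offset, 0 with the 4 mock libraries alone (648 at an unadjusted p under 0.05), 1126 without both libraries numbered 1 and 1443 without both numbered 2. Where a pair was left out each region kept 1 mock library, assumed to vary like the other groups. Of the 88 called genes named, DESeq2 kept 83, library totals 76, the length offset 50 and limma-voom 39, and the 4 mock libraries alone kept 0. None changed direction in any of these. Limma-voom lost calls that held without each mock library, among them Irx3, Irx5, Zic1, Zic4, Wnt3, Wnt8b, Wnt10a, Frzb, Stra6, Fgf1, Gria2 and Plac9b. Library totals moved the median of all genes by 0.05 in mock, 0.14 at 2 weeks and 0.25 at 4 weeks, and the higher share of calls to 64.6% in mock, beside 57.2%, and to 85.6% for the 4-week change, beside 74.7%.

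Pairing by replicate number as a block in mock gave 2064 calls, 2200 with the 4 mock libraries alone and 1962 with a block in every state. That last block gave 2808 calls at 2 weeks, 3337 at 4 weeks, and 1634 and 2181 for the changes of the region difference, although the numbers did not pair the shPTB libraries. The block changed no call of the 88 named genes. In the 4 mock libraries alone it left few residual degrees of freedom to estimate the spread.

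The 2-week count of 430 became 826 with no filter and 70 to 94 without 1 of its libraries. The 4-week count of 1167 became 442 to 516 in the same way. The change of the region difference at 2 weeks, 100 genes, became 157 with DESeq2, 318 with no filter and 26 to 163 without 1 library. At 4 weeks, 372 became 754 with no filter and 138 to 550 without 1 library.

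Signs that changed were of fixed genes with no call. Gja1 was 0.0016 with library totals, 0.0197 with no filter, 0.027 with the length offset, 0.056 with limma-voom, 0.22 without the libraries numbered 1, and 0.018, 0.018 and 0.0195 with the replicate block in mock, in every state and in the 4 mock libraries alone. Slc1a3 was 0.0065 with library totals, Ptbp1 -0.0071 without the libraries numbered 1, and Ptbp2 0.18 without those numbered 2. Without 1 mock library Gja1 lay between -0.34 and 0.43, Slc1a3 lay between -0.15 and 0.0624, Aldh1l1 lay between -0.16 and 1.17, Sox9 lay between -0.39 and 0.0105, Ptbp1 lay between -0.14 and 0.41, Ptbp2 lay between -0.52 and 0.36 and Ddx3y lay between -0.14 and 1.52. The cause of these changes was not tested, beyond the fewer libraries or other genes each setting holds.

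At the depth of the mock libraries, genes with few reads in every group fell below the filter, among them most HOX genes and most midbrain markers of the embryo.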
